A study of Arabidopsis thaliana with 8 samples.

Results

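In leaves of ABI3:MTA Arabidopsis (mta), 103 genes were listed in all 4 poly(A) RNA-seq libraries while being listed in at most 1 of the 4 wild-type (WT) libraries. They were chosen by that rule alone, out of 20690 genes listed in any library. A gene is listed in a library when its deposited normalised value reaches 1, so an unlisted gene may still have been transcribed below that level. Because the rule compares mta with WT, the difference between the genotypes is a description of how these genes were chosen and carries no test.

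Both groups were of the Col-0 accession and came from rosette leaves 5 to 9 of 4-week-old plants grown in soil. MTA encodes the catalytic subunit of the complex that writes N6-methyladenosine into mRNA, and plants without it die as embryos. In the mta plants the only intact MTA is driven by the promoter of ABI3, a seed gene, which carries the plants through embryo development, while WT plants have the normal gene. MTA transcripts had deposited values of 36.2, 60.6, 54.5 and 43.4 in mta 1 to mta 4, against 65.4, 91.6, 76.4 and 72.4 in WT 1 to WT 4. All mta values lay below all WT values, with a log2 fold change of -0.52 and a standard error of 0.15 (limma adjusted p = 0.0312), and the call was lost in 5 of 15 alternative fits, those without mta 1, WT 2, WT 3 or WT 4 and that with upper-quartile factors, where the adjusted p reached 0.0944. The values do not separate the resident gene from the ABI3-driven copy.

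Genes that are silent in the leaves of a plant fall into several known kinds. Some are transposon remnants and pseudogenes kept off by DNA methylation, some belong to other organs such as seed, root, pollen or flower, and some wait for a stress, such as infection or lack of phosphate. In bulk leaf RNA, more cells with a transcript and more transcript per cell cannot be told apart.

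The deposited values are whole multiples of a step, and 1 unit holds 2.73 to 3.98 steps depending on the library. Taking a step as 1 read, between 17132897 and 25377345 reads per library fell in genes, and the lowest listed values rest on 3 or 4 reads. The libraries listed 19349, 19694, 19444 and 19716 genes in mta, against 19204, 19519, 19450 and 19541 in WT. The mean difference of 122.25 genes was within the spread between libraries (two-sided exact permutation test over 70 assignments, p = 0.371, adjusted p = 0.371 over 4 library measures). The 103 genes are 0.498% of all listed genes, and the opposite rule, all WT and at most 1 mta library, found 61 genes, or 0.295%.

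Most of the genes were just above the limit of listing in mta. Their means over the mta libraries ran from 1.14 to 446.5 with a median of 2.73. The mean was at least 2 for 78 genes, at least 3 for 45, at least 5 for 13 and at least 10 for 6. In the opposite set, listed in WT, the means over the WT libraries ran from 1.36 to 14.3 with a median of 2.26, and 2 genes reached 10. The highest of these was AT3G11430. A mean of at least 3 was reached by 45 of the 103 genes and by 15 of the 61. AT3G01345, MRD1 and AT5G60610 stood above everything in the opposite set.

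**Figure D1:**
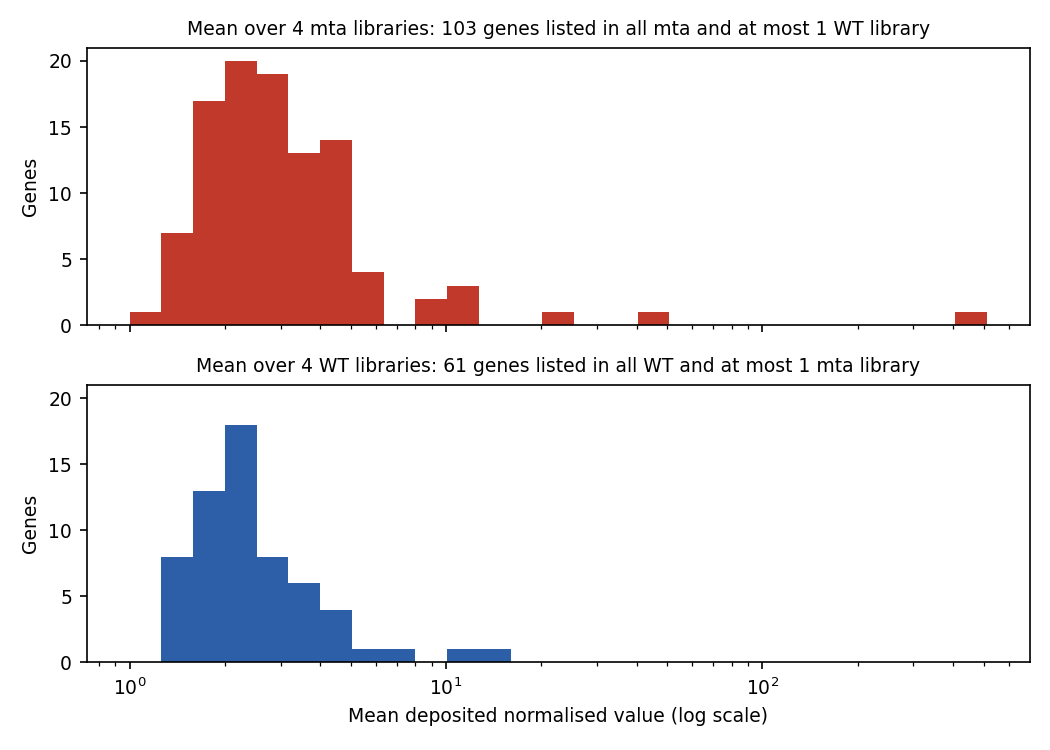
Number of genes by mean deposited normalised value on a log axis. Top, the mean over the mta libraries for the 103 genes listed in all mta and at most 1 WT library. Bottom, the mean over the WT libraries for the 61 genes listed in all WT and at most 1 mta library. Both sets are densest between 1 and 5, and 2 genes of the upper panel lie above 30.

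In WT, 44 of the 103 genes were listed in no library and 59 in a single library. That library was WT 1 for 12 genes, WT 2 for 14, WT 3 for 17 and WT 4 for 16. The WT values that were listed ran from 1.01 to 3.14 with a median of 1.47. A lower bound of the gain was computed by setting every unlisted WT value to 1, so that a fold is "at least" the value given. The median bound was 2.37-fold. It was at least 2-fold for 67 genes, at least 5-fold for 11 and at least 10-fold for 4, and it stayed below 2-fold for 36 genes. The lowest mta value exceeded the highest WT value, with unlisted values at 1, for 76 of the 103 genes, and the values overlapped for 27. Over all genes that could be compared this was so for 9.76%, a share from which nothing can be read here because the rule itself compares the genotypes.

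**Figure D2:**
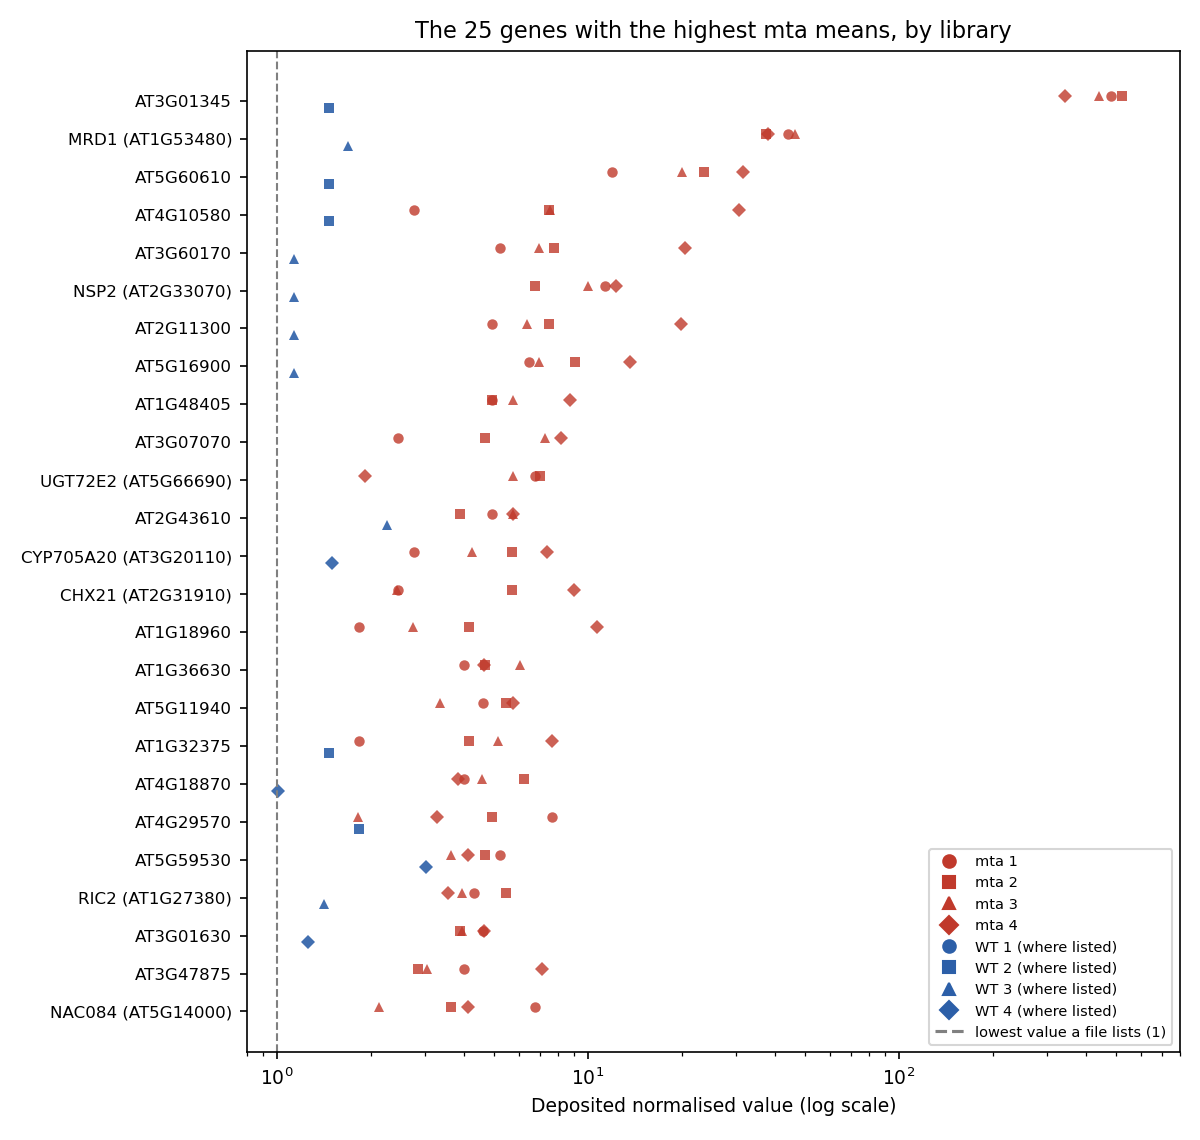
Deposited normalised value of each library, on a log axis, for the 25 of the 103 genes with the highest means in mta. Red symbols are the mta libraries and blue symbols the WT library in which a gene was listed, with 1 symbol shape per replicate number. The dashed line is the limit of 1 below which no value is listed. AT3G01345 lies above 300 in every mta library, and most other genes lie between 2 and 10.

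The highest gene by far was AT3G01345, annotated as a protein with a glycoside hydrolase family 35 domain, the family of plant beta-galactosidases. Its values were 481.9, 520.7, 441.2 and 342.1 in mta 1 to mta 4, against 1.47 in WT 2 and no listing in the other WT libraries. Every mta library was at least 233-fold above the WT value, with a mean of 446.5 ± 76.8 (SD, n = 4) and a gain of at least 400-fold. The gene alone made up 53.6% of the summed mta means of all 103 genes. No near-identical copy of it was found in the reference genome, and it overlaps no annotated neighbour. Per kilobase of annotated length its mean was 277.0, against 36.2 for the next gene, MRD1.

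MRD1 (AT1G53480), annotated as mto 1 responding down 1, had 43.9, 37.3, 46.4 and 38.0 in mta 1 to mta 4, against 1.70 in WT 3 and no listing in the other WT libraries. The mta libraries were close to each other, with a mean of 41.4 ± 4.44 (SD, n = 4) and a gain of at least 35.2-fold. AT5G60610, which encodes an F-box protein of the kind that picks targets for ubiquitination, had 11.96, 23.6, 20.0 and 31.4 in mta, against 1.47 in WT 2 alone. Its mta libraries differed by up to 2.63-fold among themselves and all lay well above the WT value. These were the only 3 genes with at least 10 in every mta library. None of them was listed in 0 WT libraries.

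Of the 103 genes, 20 passed the filter on low values of the fit over all genes, and all 20 were called higher in mta by limma. Among all 18328 genes tested, 13.3% were called higher in mta and 26.4% in either direction. A gene of this set could pass the filter only through its mta values, which makes the call a consequence of the selection. The other 83 genes were not tested.

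By annotation, the genes were sorted into classes with keywords of the product name or protein domains. Metabolic names accounted for 21 genes (20.4%, against 24.3% of all listed genes), regulatory names for 21 (20.4% against 15.0%) and defence names for 5 (4.85% against 4.99%). Pseudogenes without a product name were 15 of the 103 genes (14.6%), against 0.938% of all listed genes and 2 genes of the opposite set. Other genes listed in all mta libraries with a mean under 10 are a closer match in level, and 1.29% of these 2490 genes were such pseudogenes. Metabolic names made up 17.6% of these low genes, regulatory names 15.3% and defence names 4.58%. The metabolic share of the set was thus below that of all listed genes and above that of the low genes. There were 6 noncoding RNAs (5.83%, against 3.73% of those low genes) and 8 genes of uncharacterised proteins (7.77% against 15.5%). Other names accounted for 26 genes (25.2% against 39.6%), and 1 gene was annotated as transposon-like (0.971% against 1.61%). Of all listed genes, 2.04% were noncoding RNAs, 11.6% uncharacterised, 39.1% of other names and 1.47% transposon-like.

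**Figure D3:**
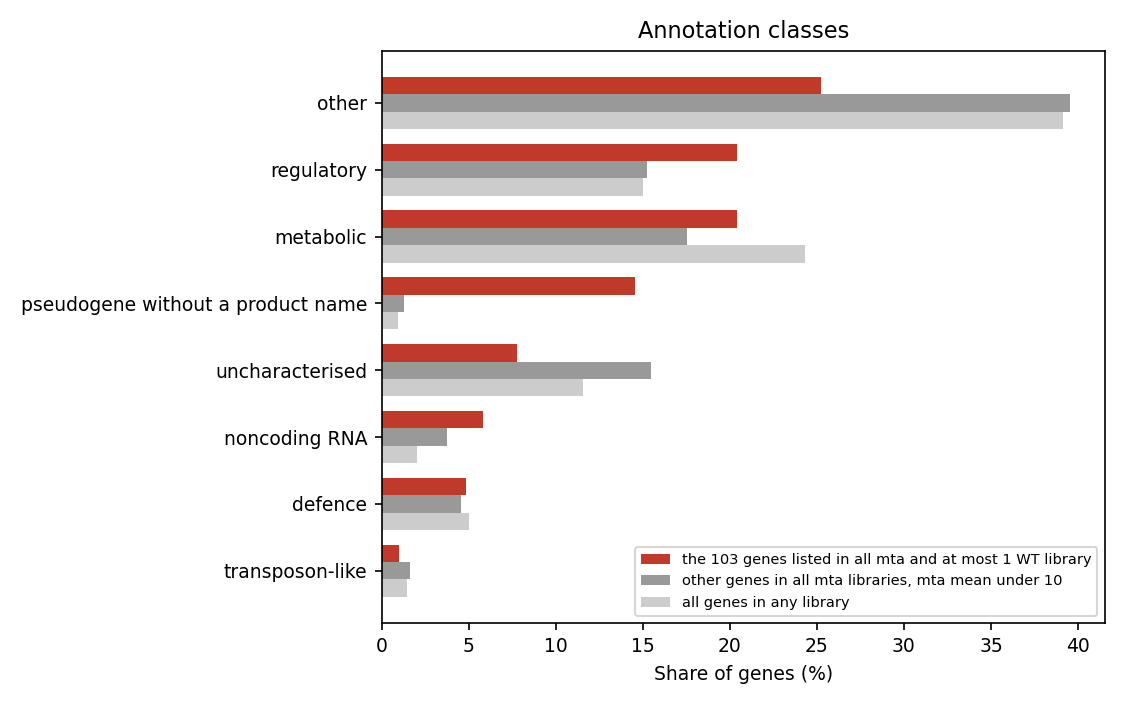
Share of genes, in percent, in each annotation class. Red bars are the 103 genes listed in all mta and at most 1 WT library, dark grey bars the other 2490 genes listed in all mta libraries with an mta mean under 10, and light grey bars all listed genes. Pseudogenes without a product name make up 14.6% of the red set and about 1% of both grey sets.

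Genes with a match to transposon proteins were mostly these pseudogenes. Transposons code for gag, reverse transcriptase, integrase and transposase proteins, and their decayed copies are annotated in Arabidopsis as pseudogenes or transposable element genes. The sequences of all listed genes were translated and compared with 281 annotated Arabidopsis proteins. These had a transposon keyword in the product name or in the annotated protein domains, so not all are named as transposon proteins. Matches were found for 8 of the 103 genes (7.77%), against 2.25% of the other genes with a mean under 10 and 1.92% of all listed genes. Of these 8, 7 were pseudogenes without a product name, and among all 194 listed pseudogenes of that kind 57.2% had such a match, so a match is common to the kind. The remaining gene is AT5G48050, annotated as a Copia-like polyprotein with a gag domain, which had 4.60, 2.59, 2.73 and 1.91 in mta and no listing in WT. It is the single gene of the set whose product name is that of a transposon, and it was highest in mta 1.

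The pseudogenes had the largest spread within mta. AT4G10580 had 2.76, 7.51, 7.58 and 30.6 in mta 1 to mta 4, against 1.47 in WT 2 and no other listing. Its value in mta 4 was 11.1 times that in mta 1, and its coefficient of variation of 103.4% was the highest of all 103 genes. The whole of its sequence is covered by 48 near-identical alignments elsewhere in the genome (at least 95% identity over at least 200 bases). Several alignments can fall in 1 copy, so they do not count copies. The part of reads from such copies in its values was not tested.

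AT3G60170 had 5.21, 7.77, 6.97 and 20.5 in mta, against 1.13 in WT 3 alone. It matched a transposon-derived protein at 38.5% identity over 480 residues. AT2G11300 had 4.91, 7.51, 6.36 and 19.9 in mta, against 1.13 in WT 3 alone, with no such match and no near-identical copy. In both genes mta 4 was far above the other mta libraries, which still exceeded the WT value at least 4-fold.

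The same library was the highest for AT2G10980, with 1.53, 1.81, 2.73 and 8.20 in mta against 1.98 in WT 3. Here mta 1 and mta 2 lay below the single WT value, so the genotypes overlapped. AT1G44840 had 1.84, 1.55, 1.52 and 5.19 in mta and no listing in WT, and AT3G30393 had 2.15, 2.07, 2.73 and 5.74 in mta and no listing in WT. Both have near-identical sequence elsewhere, in 4 alignments for AT1G44840 and 34 for AT3G30393.

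AT3G47875 had 3.99, 2.85, 3.03 and 7.10 in mta and no listing in WT. It matched a transposon-derived protein at 39.4% identity. AT5G10850 had 2.76, 1.81, 2.42 and 5.19 in mta against 3.14 in WT 1, the highest WT value of the whole set, and overlapped it.

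Not all pseudogenes followed mta 4. AT1G36630 had 3.99, 4.66, 6.06 and 4.64 in mta and no listing in WT. AT4G06615 had 3.68, 4.15, 4.24 and 3.55 in mta, against 1.41 in WT 3, and with a coefficient of variation of 8.70% it was among the steadiest genes of the set. It has 30 near-identical alignments elsewhere in the genome, which cover the whole of its sequence. AT3G28955 had 3.99, 3.63, 2.73 and 4.10 in mta and no listing in WT. For these 3 pseudogenes every mta library was clearly above WT and no library stood apart.

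Over the 15 pseudogenes the summed values were 44.5, 58.5, 55.2 and 125.7 in mta 1 to mta 4. The highest library was mta 4 for 11 of them, and for 10 after rescaling of the libraries. Among 32 other pseudogenes without a product name and with a mean under 10, mta 4 was the highest for 16 (50%), and among all other genes under 10 for 42.3%, so a high mta 4 is common among genes at this level. Among all 97 genes of the set with a mean under 10 it was the highest for 37.1%. In mta 1 to mta 3 the pseudogene sums were above 40, while WT 3 listed 4 of these genes and the other WT libraries 1 or 2 each. The rule itself asks for a listing in every mta library and in at most 1 WT library, so nothing can be read from this contrast.

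**Figure D4:**
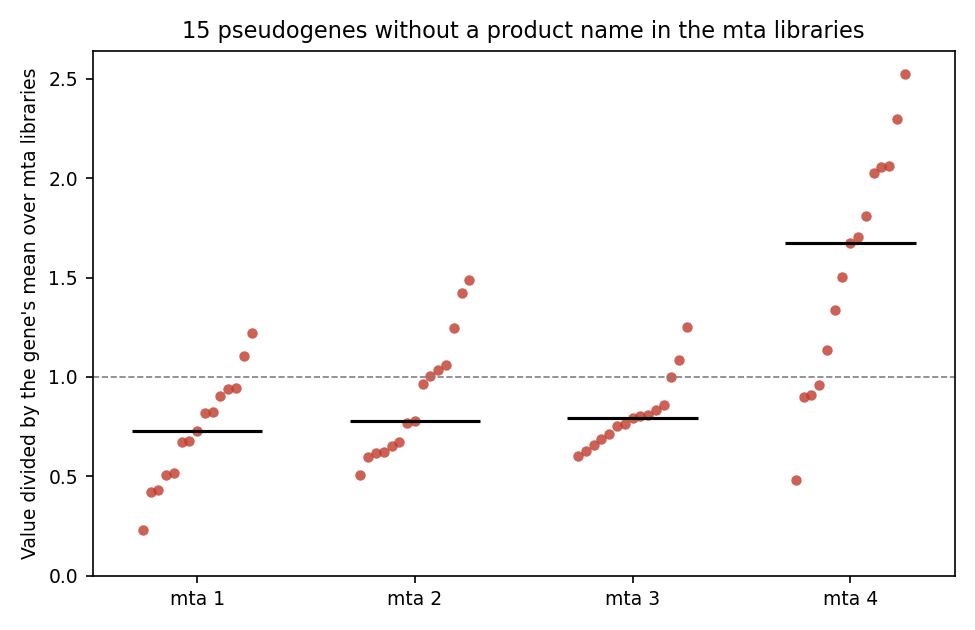
Each point is 1 of the 15 pseudogenes without a product name, plotted as its deposited value in that mta library divided by its mean over the mta libraries; points are sorted within a library and black bars are medians. The median is 1.67 in mta 4, against 0.73 to 0.80 in mta 1 to mta 3.

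The share of reads with more than 1 alignment, which were left out of the gene values, moved with genotype and was also highest in mta 4. It was 8.03%, 8.03%, 8.50% and 9.07% of the deposited total in mta, against 7.07%, 6.06%, 6.47% and 6.36% in WT. The groups did not overlap, and the difference of 1.92 percentage points had an exact permutation p of 0.0286, the smallest that 70 assignments allow (adjusted p = 0.0571 over 4 library measures). Ambiguous reads, those that fall on more than 1 gene, were a smaller share in mta, at 0.369% ± 0.0117 against 0.403% ± 0.00289 in WT (SD, n = 4 each), with the same exact permutation p of 0.0286 (adjusted p = 0.0571). Their part in the values of genes that overlap a neighbour was not tested. Whether the share of reads with more than 1 alignment plays a part in the values of genes with near-identical copies was not tested. Such copies were found for 9 of the 103 genes.

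The machinery that keeps transposons silent was described from a fixed list of 27 genes, all of which passed the filter. None was called higher in mta and 1 was called lower, while 13.3% of all genes tested were called higher and 13.1% lower. The median log2 fold change of the list was -0.11, against -0.02 over all genes tested. The gene called lower was SUVH9, a protein that helps bring RNA polymerase V to methylated DNA. Its normalised read count was 152.0 ± 5.72 in mta and 182.3 ± 7.29 in WT (SD, n = 4 each), with a log2 fold change of -0.26 and a standard error of 0.08 (limma adjusted p = 0.0430), and the call was lost in 9 of 15 alternative fits, among them those without mta 1, mta 2, mta 3, WT 2, WT 3 or WT 4, with an adjusted p of up to 0.129. Without mta 4, 7 genes of the list were called, and the count over all genes was 6543, against 4842 with all libraries.

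**Figure D5:**
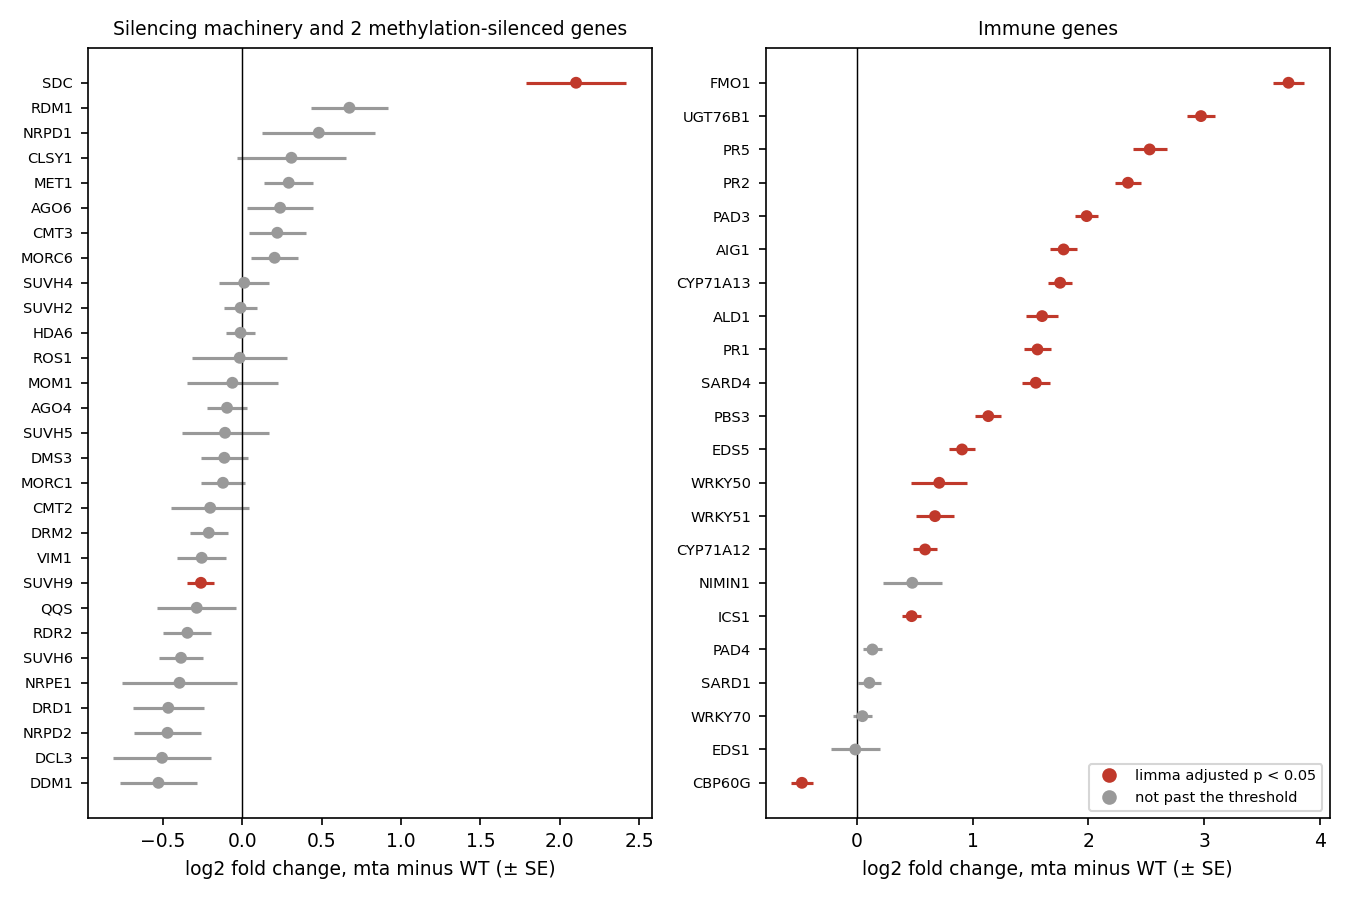
Log2 fold change, mta minus WT, with its standard error from limma, for 27 genes of the DNA methylation and silencing machinery with SDC and QQS (left) and for 22 immune genes (right). Red points have an adjusted p under 0.05. On the left SUVH9 at -0.26 is past the threshold, as is SDC at 2.10, which entered the fit only through its mta values and so had to differ, and on the right 16 genes are higher and 1 is lower.

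SDC, an F-box gene whose promoter repeats are silenced by DNA methylation in wild-type leaves, lay just outside the rule because it was listed in 2 WT libraries. Its normalised read counts were 4.52, 6.02, 4.93 and 4.83 in mta, against 1.02 in WT 2, 0.96 in WT 4 and no listing in WT 1 and WT 3. All mta libraries were at least 4-fold above the highest WT library. SDC passed the filter on low values only through its mta libraries, so its log2 fold change (2.10 ± 0.32, SE) is given as a description and its call is no test. Of the other genes of that list, QQS, at 13.7 ± 2.66 in mta and 17.4 ± 5.59 in WT, did not pass the threshold, and FWA, an imprinted flowering gene, was not listed in any library.

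The 5 genes with defence names were of different annotated kinds. NSP2, a nitrile specifier protein that steers the breakdown of glucosinolates towards nitriles, had 11.3, 6.74, 10 and 12.3 in mta, against 1.13 in WT 3 and no other listing. It was at least 9.77-fold higher in mta, with all mta libraries at least 5.95-fold above the WT value. AT2G43610, a chitinase of the family that cleaves fungal cell walls, had 4.91, 3.89, 5.76 and 5.74 in mta, against 2.26 in WT 3 alone, and its groups did not overlap.

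GLIP1, a secreted lipase linked to resistance against fungi, had 3.07, 6.22, 1.21 and 4.37 in mta, against 1.47 in WT 2. Its value in mta 3 was below the WT value, so the groups overlapped. AT5G25020, named after enhanced disease resistance, had 3.07, 2.59, 1.52 and 5.19 in mta and no listing in WT. AT1G17615, a TIR-NBS protein of the disease resistance class, averaged 1.86 ± 0.245 (SD, n = 4) in mta. These genes were at most a few units above the limit of listing.

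Immune genes that both genotypes express were described beside these. Of a list of 22 genes of salicylic acid, N-hydroxypipecolic acid and camalexin metabolism and their regulators, 16 were called higher in mta. CBP60G was called lower, and the median log2 fold change of the list was 1.02. Over all genes tested, 13.3% were called higher and 13.1% lower. All 22 were listed in every library, so none belongs to the set of 103. The list was chosen with earlier results of these libraries known, and its direction is no independent evidence. FMO1, for example, which makes N-hydroxypipecolic acid, had 132.0 ± 17.5 in mta and 8.99 ± 0.840 in WT (SD, n = 4 each).

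Among the 21 genes with metabolic names, AT3G01345 was followed by UGT72E2, a glucosyltransferase of lignin precursors. It had 6.75, 6.99, 5.76 and 1.91 in mta and no listing in WT, and mta 4 was the lowest library. CYP705A20, a cytochrome P450, had 2.76, 5.70, 4.24 and 7.38 in mta, against 1.51 in WT 4. It overlaps CYP705A21 on the same strand, which averaged 64.5 in mta and 71.7 in WT.

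Oxygenases and nucleotide enzymes followed. AT5G59530, a 2-oxoglutarate and iron-dependent oxygenase, had 5.21, 4.66, 3.64 and 4.10 in mta, against 3.02 in WT 4, so that its groups were separated by a small gap. It overlaps the oxygenase gene AT5G59540, which averaged 298.0 in mta and 330.5 in WT, and the part of reads from that gene was not tested.

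AT4G29570, a cytidine deaminase family gene, had 7.67, 4.92, 1.82 and 3.28 in mta, against 1.83 in WT 2, and overlapped it. UKL5, a uridine kinase-like gene, had 4.60, 2.59, 3.64 and 4.92 in mta and no listing in WT, and it overlaps the proteasome gene PBB1, which averaged 487.8 in mta and 609.8 in WT. AT3G04050, a pyruvate kinase family gene, had 1.84, 3.37, 4.24 and 5.19 in mta, against 1.26 in WT 1. AT1G16705 has the name of a p300/CBP acetyltransferase-related protein and was put under metabolic names by the keywords alone. It had 2.76, 3.11, 3.33 and 3.55 in mta, against 1.70 in WT 3. It overlaps AT1G16700, which averaged 172.0 in mta and 224.2 in WT.

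Lower in the list stood enzymes with known roles elsewhere in the plant. GDH3, a glutamate dehydrogenase, averaged 2.55 ± 1.27 in mta and had 2.20 in WT 1, with overlapping values. NCED9, which cleaves carotenoids to make abscisic acid and is best known from seeds, averaged 2.06. It had 2.20 in WT 2, and its values overlapped too. FUT6, a fucosyltransferase of arabinogalactan proteins, averaged 2.33, and ASE3, which starts purine synthesis, averaged 2.11, both with no listing in WT.

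Over the 21 metabolic genes, 16 had groups that did not overlap, against 76 of all 103 genes and 9.76% of genes in general, a count that the rule itself produces. By the bound, 13 were at least 2-fold higher in mta and 2 at least 5-fold. Their median coefficient of variation in mta was 27.8%, against 47.4% for the pseudogenes without a product name. For 11 of the metabolic genes mta 4 was the highest library.

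The regulatory genes were led by AT5G60610 and by kinase genes. AT5G16900, a leucine-rich repeat protein kinase, had 6.44, 9.07, 6.97 and 13.7 in mta, against 1.13 in WT 3. All mta libraries were at least 5.69-fold above the WT value. AT3G07070, a protein kinase gene, had 2.45, 4.66, 7.27 and 8.20 in mta and no listing in WT.

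Among transcription factors, AT1G18960, a Myb-like gene, had 1.84, 4.15, 2.73 and 10.7 in mta and no listing in WT, with mta 4 standing above the rest. AT4G18870, whose product name is that of an E2F/DP family protein and whose annotated domain is of the heat shock factor type, had 3.99, 6.22, 4.55 and 3.83 in mta, against 1.01 in WT 4. The NAC family gave NAC084, NAC085 and NAC044, at 4.15 ± 1.93, 3.83 ± 0.282 and 3.70 ± 0.617 in mta (SD, n = 4 each). NAC044 and NAC085 are known for arresting the cell cycle after DNA damage, and both had all mta values at least 1.94-fold above the highest WT bound.

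NAC085, at 3.99, 4.15, 3.64 and 3.55 in mta against 1.83 in WT 2, had the lowest coefficient of variation of the 103 genes, 7.37%. AT1G32375, an F-box gene, had 1.84, 4.15, 5.15 and 7.65 in mta against 1.47 in WT 2. MYB42, a regulator of lignin deposition, averaged 1.91 in mta, LBD18, known from lateral root formation, 1.72, LBD22 2.11 and the heat shock factor HSFB3 2.25. In WT 4 these had 1.26, 1.26, 2.01 and 1.76. The values of MYB42, LBD22 and HSFB3 overlapped between the genotypes, and those of LBD18 did not.

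Of the 6 noncoding RNAs, 4 are small nuclear or nucleolar RNAs, which normally carry no poly(A) tail. U3D and U3B, which guide the processing of ribosomal RNA, averaged 3.003 ± 1.26 and 2.73 ± 0.531 in mta, and each was also listed in WT 1, at 1.26 and 2.20. U12, of the minor spliceosome, averaged 2.52 ± 0.614 in mta and had 2.76 in WT 4, and U2.7 averaged 1.88 in mta. The values of U3D, U3B and U12 overlapped between the genotypes, and U3D, U3B and U2.7 have near-identical copies.

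IPS1, a noncoding transcript that is induced by lack of phosphate and binds the microRNA miR399, is annotated among the protein-coding genes and was sorted under other names. It had 2.45, 3.37, 4.85 and 3.55 in mta and no listing in WT. Each mta library lay at least 2.45-fold above the limit of listing.

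Others of the 26 remaining genes included AT1G48405, of a kinase-interacting family, with 4.91, 4.92, 5.76 and 8.74 in mta and no listing in WT. That was the highest mean, 6.08 ± 1.82 (SD, n = 4), among the 44 genes unlisted in every WT library. CHX21, a cation/proton exchanger, had 2.45, 5.70, 2.42 and 9.02 in mta and no listing in WT, whereas its relative CHX2 averaged 2.69 in mta and overlapped the 1.70 in WT 3.

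AT5G11940, a subtilase, had 4.60, 5.44, 3.33 and 5.74 in mta and no listing in WT. RIC2 and RIC1, which act downstream of ROP GTPases, averaged 4.31 ± 0.814 and 2.78 ± 0.622 in mta, with 1.41 and 1.70 in WT 3. AT3G01630, a major facilitator transporter, was among the steadiest genes at 4.60, 3.89, 3.94 and 4.64 in mta against 1.26 in WT 4. AT5G49200, a WD-40 repeat protein, had 3.99, 3.89, 3.03 and 3.83 in mta and no listing in WT. Genes best known from flowers or pollen, GRP19 and PAB5, averaged 2.22 and 1.51 in mta.

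Markers of other organs were checked as fixed lists. Of 12 seed storage and maturation markers, 10 were listed in no library, and EM6 was listed in 0 mta and 4 WT libraries. Of 7 root markers, 5 were unlisted throughout, and PYK10 was lower in mta, at 69.8 ± 19.7 against 131.0 ± 4.67 in WT (limma adjusted p = 0.00239). Of 13 flower and pollen markers, 8 were unlisted, including all the pollen markers, and the summed level of the list ran from 5.24 to 11.5 in mta and from 4.06 to 6.35 in WT. AG, a floral organ gene, had 5.18 ± 1.45 in mta and 2.55 ± 0.336 in WT (limma adjusted p = 0.0390). It met the filter on low values through its mta libraries, so the call is a description and no test. The call was lost in 9 of 14 alternative fits, with a limma adjusted p of up to 0.109. Among these fits were those without any single WT library or without mta 1, mta 3 or mta 4. Of the other flower genes listed, PI was in 2 mta and 4 WT libraries and SEP1 in 1 mta and 3 WT libraries, both with lower means in mta. SEP3 was in 2 mta and 0 WT libraries and AP1 in 1 mta and 0 WT libraries, both with higher means in mta. AG made up most of the summed level in mta. All 6 leaf markers were listed in every library. RBCS1A, MYB60 and SUC2 were called higher in mta, with log2 fold changes of 0.87, 0.52 and 0.33, and the guard cell marker AT1G22690 was called lower, at -0.39 by limma. The call was lost without mta 2 or WT 4 for AT1G22690, without mta 1, mta 2, mta 3, WT 2, WT 3 or WT 4 for SUC2, and without mta 2, mta 3, mta 4, WT 1, WT 3 or WT 4 for MYB60. The part of a change in tissue make-up in the set of 103 was not tested.

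Replicate spread in the set was close to that of other genes with a mean under 10, which were not matched further in level. The median coefficient of variation over the mta libraries was 33.0% for the 97 genes with a mean under 10, against 30.1% for the other 2490 genes under 10. The range over all 103 genes was 7.37% to 103.4%. The smallest mta value was below 2 for 67 genes, and 20 genes had at least 3 in every mta library. At the lower end, AT1G70270 averaged 1.14 in mta and had 1.26 in WT 1, with overlapping values. PAB5, AT2G11270 and AT2G36650 had a smallest mta value close to 1. AT2G11270 and AT2G36650 both had 1.23, 1.04, 1.21 and 2.19 in mta.

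Just outside the rule stood 105 genes listed in all mta and exactly 2 WT libraries, and 114 listed in 3 mta and at most 1 WT library. The highest of the first kind was AT2G15940, a pseudogene without a product name, with 6.44, 12.2, 7.27 and 10.4 in mta against 1.26 in WT 1 and 1.98 in WT 3. AT5G06730, a peroxidase family gene, had 9.82, 9.07, 9.39 and 7.65 in mta against 1.98 in WT 3 and 2.76 in WT 4. AT4G09430, a disease resistance gene of the TIR-NBS-LRR class, had 11.3, 6.74, 5.45 and 7.65 in mta against 1.099 in WT 2 and 1.41 in WT 3. In all 3, the lowest mta library was well above both WT values, and their mta means were above the median of the 103 genes.

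Of the second kind, PLA2-DELTA, a phospholipase, was unlisted in mta 1 and had 3.11, 5.76 and 4.37 in mta 2 to mta 4, with no listing in WT. scpl2, a serine carboxypeptidase-like gene, was also unlisted in mta 1 and had 3.89, 3.94 and 4.92 in the other mta libraries. AT1G52990 and ATCG00300 were instead unlisted in mta 4, and each was listed in WT, at 1.51 in WT 4 and 1.47 in WT 2.

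The genes were scattered over the genome. Chromosomes 1 to 5 held 29, 19, 21, 12 and 22 of them. Of 98 pairs of consecutive genes of the set on the same chromosome, 4 had at most 10 annotated genes between them, and the median was 217.5 genes. Direct neighbours were AT4G38870, an F-box gene, and ASE3. The gene of the set nearest to MTA was AT4G10580, with 26 annotated genes between them.

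Annotated genes directly beside the 103 genes were called changed about as often as genes in general. Of 204 such neighbours, 101 were tested and 24 were called changed (23.8%, against 26.4% of all genes tested), 14 higher and 10 lower in mta. Their median log2 fold change was -0.04, against -0.02 for all genes. Single neighbours were chosen after their values were seen. AT5G11930, next to the subtilase gene AT5G11940, averaged 19.5 in mta and 2.17 in WT (log2 fold change 2.84). This gene could pass the filter on low values only through its mta values, so its call is no test. RLP28, a receptor-like protein gene next to NSP2, averaged 31.0 in mta and 12.6 in WT (log2 fold change 1.39, limma adjusted p = 0.000238). A neighbour's transcribed region overlapped 25 genes of the set, 19 of them on the other strand.

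Promoters of the 82 protein-coding genes of the set, from 250 bases before to 50 after the annotated start in TAIR10.1, were searched on both strands for 5 short motifs. The W-box core TTGAC, bound by WRKY factors, was present in 47.6%, against 50.5% of 27444 promoters of the same length. The TGA core TGACG was present in 23.2% against 23.1%, the G-box CACGTG in 4.88% against 7.68% and the TATA box TATAAA in 52.4% against 52.1%. The RY repeat CATGCA, known from seed gene promoters, was present in 15 of the 82 promoters, or 18.3%, against 9.72%. These matches are descriptions of letters in the window, and the W-box and TGA cores can share the letters TGAC.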

How the data were processed

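Poly(A) RNA was sequenced from leaves with strand-specific TruSeq libraries, per the labels' protocols. Per the submitters' processing notes, STAR 2.4.0, HTSeq and DESeq2 were used on TAIR10. The deposited values are a normalised signal: reads per gene scaled by the authors with a single factor for each library, with values under 1 left out. The values were checked and were whole multiples of a step in every library. The labels do not state separate plants, so p-values measure spread between libraries, which may be technical.

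Unlisted values were set to 0 in fits and to 1 in lower bounds of folds. The 18328 of 20690 genes that reached 3 in 4 or more libraries were scaled with factors from the trimmed mean of M values (giving the normalised read count) and fitted as log2(value + 1) with limma 3.58.1 in R 4.3.3, with genotype as the only term and Benjamini-Hochberg adjustment at 0.05. Fold changes on this scale are understated for low genes. Levels of the 103 genes and of their neighbours are deposited values; levels of listed marker, immune and silencing genes are normalised read counts. The fit was tested on simulated data with changes planted only in genes with a mean of at least 10. That does not test it at the level of the 97 genes of the set with an mta mean under 10.

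The 103 genes and the 7 lists (90 genes) were chosen with earlier results of these data known, and the keyword classes were corrected after their matches were seen. Named genes were the 25 highest, the 8 highest per class, the 5 most and 5 least variable, those nearest the limit of the rule, adjacent genes, and the smallest adjusted p of each list; others were named after their values were seen. Annotation came from TAIR10.1, which matched 20582 gene identifiers; because builds differ, no coordinates are given. Sequences were compared with BLAST 2.17.0 (translated matches at an E-value of at most 1e-10). Figures were drawn with matplotlib 3.10.9. Alternatives covered scaling, pseudocount, filters, other limits of listing, a replicate block and leaving out single libraries.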

Additional observations from a re-analysis of the deposited data

Results flagged for a closer look

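Of 85 groups of 4 values checked for a library far from the rest, 5 were flagged, and chance flags about 1 in 20. The gap of the far library to the nearest of the others, as a share of the range over the mta libraries, was 0.8326 for AT3G60170 and 0.9115 for AT1G44840, both pseudogenes highest in mta 4. It was 0.8341 for AT2G11270 and for AT2G36650, both highest in mta 4 at a value of 2.19, and 0.8302 for AT5G49200, lowest in mta 3 at 3.03.

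Reads with more than 1 alignment, which enter no gene value, were a larger share of the total in mta than in WT, by 1.9162 percentage points, and the groups did not overlap.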

How the results depend on the processing

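The count of genes listed in all mta and at most 1 WT library was 103. It was 44 when no WT library was allowed, 126 and 132 when listing began at 2 or 3, and 144 from a rescaled value of 2. It ran from 121 to 168 with 1 library left out, a rule that is looser by construction; the highest counts were 159 without WT 2 or WT 3 and 168 without WT 4. The opposite count of 61 was 26 when no mta library was allowed and ran from 75 to 120 with 1 library left out, with 120, 96 and 104 without mta 2, mta 3 and mta 4. The difference in genes listed per library, 122.25, was 131.0 from a value of 2.

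Of the 103 genes, the 20 called became 99 with no filter on low values and 3 with a filter of 10, because the filter decides how many are tested. They ranged from 1 to 20 with 1 library left out. The 1 holds without any of the mta libraries, since the filter asks for 4 libraries and 3 mta libraries remain. All genes called ranged from 3192 (without mta 2) to 6543 (without mta 4), against 4842. Silencing machinery genes called, 1, were 3 with the authors' scaling and 0 with median-ratio factors, and 0 to 7 with 1 library left out; the 7 were found without mta 4, and the cause was not tested. Neighbours called, 24, ranged from 14 (without mta 2 or WT 4) to 30. Immune genes called, 17, were 16 or 17 throughout. The authors' scaling alone moves the median log2 fold change of all genes to -0.16.

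Same-numbered libraries did not deviate together (correlations of 0.47, 0.08, -0.20 and -0.35), so the numbers were not taken as pairs. With a replicate block 4516 genes, 20 of the 103 genes, 0 silencing genes, 17 immune genes and 19 neighbours were called. Of named genes, 187 values for 18 genes of the set kept direction and call. Of 224 values for 17 other genes, 35 lost the call, in SUVH9, AG, AT1G22690, SUC2 and MYB60, and 0 reversed. The planned count models were not run, because the values are not raw counts. At values of 1 to 3, a listing rests on few reads.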
